A study of Mus musculus with 6 samples.

Results

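The tumors described here are the 3 libraries of mouse mammary tumors labelled CdGAP wt/wt, called wt1, wt2 and wt3, out of 6 libraries in the series. They were chosen by that label alone, and no measured value entered the choice. All 3 are NIC+ tumors with the genotype CdGAP wt/wt. NIC mice carry a transgene whose MMTV promoter, active in mammary epithelium, makes an activated form of the receptor ErbB2 (Neu) and Cre recombinase from the same transcript, so these tumors also carried Cre, with no CdGAP allele for it to recombine. CdGAP is the protein encoded by Arhgap31, a GTPase-activating protein for Cdc42 and Rac1. The other 3 libraries of the series, CdGAP fx/fx tumors, enter no value below. The sources used here give neither the age nor the strain of the mice. No label ties each library to a mouse of its own, so the spread between them may be in part technical. Tumors were sequenced in bulk, and each library therefore mixed tumor cells with the stroma, vessels and blood cells of the host.

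ErbB2 is a receptor tyrosine kinase of the epidermal growth factor receptor family that has no known ligand of its own and signals as a dimer, with ErbB3 as a preferred partner, through the PI3 kinase and MAP kinase pathways. The mammary duct has an inner luminal layer, with hormone-sensing cells and alveolar progenitor cells that can make milk, and an outer basal layer of contractile myoepithelial cells. Keratins 8 and 18 mark luminal cells, keratins 5 and 14 basal cells, and Elf5 and Kit the alveolar progenitor branch.

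Each library held 45613269 (wt1), 42373196 (wt2) or 46460750 (wt3) counts of read pairs over 54232 genes. For comparing 1 gene across libraries, counts are given per 1000000 counts of the TMM-scaled library (CPM). For comparing genes with each other they were divided by gene length and scaled to the same total (TPM). At this depth 3 counts, the most that a count of 0 allows, stand for 0.0676, 0.0683 and 0.0652 CPM, and this covers counting error only. A mean of at least 1 CPM was reached by 13815 genes, of which 12509 are protein coding, and 26934 genes had 0 counts in every library. The share of counts in protein-coding genes ran from 97.7% to 98.2%, and that in mitochondrial genes from 1.81% to 2.25%.

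The 3 tumors shared most of their transcriptome and differed by more than counting error in most genes. Pearson's r of log2 CPM across 15546 genes was 0.975 between wt1 and wt3, and 0.963 between wt2 and either of them. These are correlations across genes, which are not independent replicates. The median gene with a mean of at least 1 CPM was 1.39-fold higher in its highest library than in its lowest, a log2 range of 0.48. A chi-square test against the scaled library sizes, with Benjamini-Hochberg adjustment, put 12895 of 15546 genes (82.9%) beyond counting error, and 1590 of the 11177 genes that averaged at least 5 CPM had a range of 2-fold or more. The common biological coefficient of variation from edgeR, the spread between libraries after counting error is removed, was 0.327.

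Genes are called variable here when they averaged at least 5 CPM and their highest library was at least 4-fold their lowest, and stable when they averaged at least 50 CPM and the range was at most 1.1-fold. Of 11177 genes above the first level, 362 were variable (3.24%), and of 4814 above the second, 543 were stable (11.3%). The genes nearest the limits had folds of 4.003 inside and 3.994 outside for variable genes, and of 1.09997 inside and 1.10017 outside for stable genes. The variable genes were highest in wt1 in 159 cases, in wt2 in 124 and in wt3 in 79. They were lowest in wt2 in 164 cases, in wt3 in 125 and in wt1 in 73. Over all 13815 genes with a mean of at least 1 CPM, wt1 was the highest library for 25.5% and the lowest for 26.7%, wt2 for 38.1% and 40.5%, and wt3 for 36.4% and 32.8%, so wt2 was most often at an extreme and wt1 least often. These shares are the background for the counts of highest and lowest libraries given with the gene lists.

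**Figure D1:**
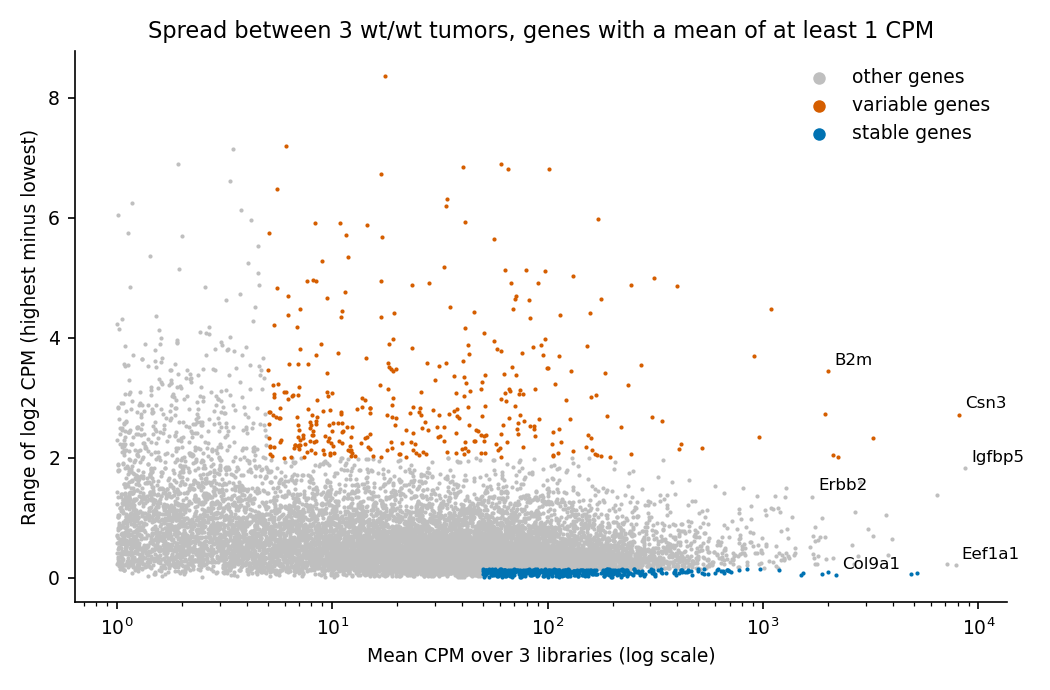
Each point is a gene with a mean of at least 1 CPM over wt1, wt2 and wt3; the horizontal axis is the mean CPM on a log scale and the vertical axis the range of log2 CPM between the highest and the lowest library. The 362 variable genes (orange) lie above a range of 4-fold and include the abundant Csn3 and B2m, and the 543 stable genes (blue) lie near 0 and include Col9a1.

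The most abundant transcripts held a limited share of the counts of each tumor. The 10 genes highest in a library held 6.25% of its counts in wt1, 6.11% in wt2 and 6.37% in wt3. The 100 genes highest in a library held 19.7% of its counts in wt1, 19.2% in wt2 and 19.4% in wt3, and the 1000 highest between 49.2% and 49.7%. Igfbp5, which encodes a secreted protein that binds insulin-like growth factors, ranked first by mean CPM at 11321, 3234 and 11451 CPM in wt1, wt2 and wt3. It was the top gene of wt1 (1.101% of counts) and wt3 (1.135%), and it was 3.54-fold lower in wt2 than in wt3.

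Csn3, the milk protein kappa-casein, ranked second at 5651, 16324 and 2485 CPM. It was the top gene of wt2, with 1.69% of that library's counts, and its 6.57-fold range made it a variable gene. Aqp5, a water channel of secretory epithelia, ranked 5th at 6577, 3522 and 9169 CPM, lowest in wt2 as Igfbp5 was. Lcn2, the siderophore-binding protein lipocalin 2, had 2326, 4812 and 3996 CPM, lowest in wt1. Among these 4 abundant transcripts, Igfbp5 and Aqp5 were lowest in wt2, where Csn3 and Lcn2 were highest.

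Per length, other genes came first. The mitochondrial transcript mt-Co1, a subunit of cytochrome c oxidase, was highest at 15127 ± 842 TPM (SD, n = 3), followed by mt-Cytb at 11404 ± 2871 TPM and the translation elongation factor Eef1a1 at 10322 ± 826 TPM. The water channel Aqp5 had 8058 ± 3413 TPM, the milk protein alpha-lactalbumin (Lalba) 7996 ± 2673 TPM, and kappa-casein (Csn3) 6571 ± 6046 TPM. Igfbp5, first by CPM, was 16th per length, at 4687 ± 2469 TPM. SDs were a small part of the mean for the elongation factors Eef1a1 and Eef2 (4799 ± 115 TPM), and nearly as large as the mean for Csn3.

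Further down the 20 highest by CPM, genes of very different roles stood side by side, from Actn4, an actin cross-linker, at 3987, 3229.6 and 4182 CPM, and Cpd, a membrane carboxypeptidase, at 3856, 2200.1 and 3120.0 CPM, to Slc12a2, the sodium-potassium-chloride cotransporter of secretory cells, at 2853, 1389 and 4174 CPM. Slc12a2 was highest in wt3 and lowest in wt2, the order of Aqp5 and Igfbp5. Ion transport genes chosen after their values were seen were also abundant: Ano1, a calcium-activated chloride channel, had 2138, 1342 and 2064 CPM, and Kcnn4, a calcium-activated potassium channel, had 1644, 1655 and 1917 CPM. The secreted protein Wfdc18 and the iron carrier transferrin (Trf), chosen in the same way, had 1335, 1879 and 2041 CPM and 1472, 1342 and 2419 CPM. Gm42418, a non-coding locus that overlaps ribosomal RNA sequence, had 5255, 5259 and 4966 CPM.

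**Figure D2:**
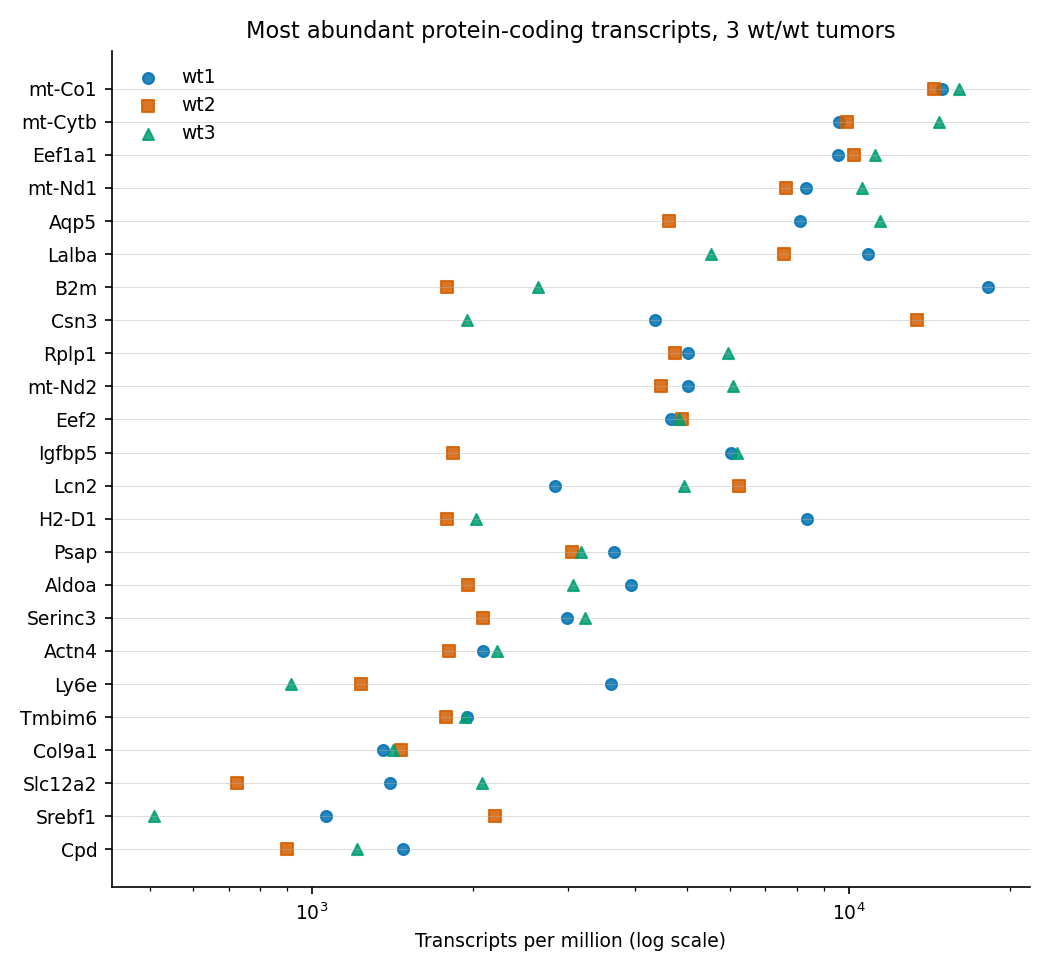
TPM (log scale) of the protein-coding genes among the 20 highest by CPM or the 10 highest per length, 1 symbol for each library (circle wt1, square wt2, triangle wt3). The symbols of Eef2 and Col9a1 nearly coincide, while those of B2m, Csn3 and Igfbp5 lie far apart.

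The receptor that the transgene encodes was among the most abundant transcripts. Erbb2 (ENSMUSG00000062312, chromosome 11, 98412470 to 98437716) had 1712, 2404 and 945 CPM in wt1, wt2 and wt3, which put it at rank 40 of all genes. The order was wt2, wt1, wt3, with a 2.54-fold range. These counts cannot separate transcripts of the transgene from those of the native gene. Per length, Erbb2 had 1072 ± 493 TPM (SD, n = 3), its partner Erbb3 206 ± 29.9 TPM, the epidermal growth factor receptor Egfr 29.4 ± 5.25 TPM and Erbb4 23.3 ± 8.91 TPM. Erbb3 had 405, 406 and 320.4 CPM and was lowest in wt3 as Erbb2 was, while Egfr had 123, 80.9 and 101 CPM and was lowest in wt2. Erbb4 had 69.5, 122 and 69.9 CPM and was highest in wt2.

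Among the 11 ErbB ligands, 7 reached a mean of 1 CPM. The neuregulin Nrg2 was highest per length at 81.7 TPM, followed by Egf at 52.8 TPM and Tgfa at 25.8 TPM. Egf was a stable gene at 175, 189 and 179.5 CPM, while Tgfa was higher in wt3 than in the others, at 42.0, 40.4 and 70.7 CPM. Areg, the amphiregulin gene, was low in wt1 and wt2, with 14, 13 and 111 counts, Ereg had 2, 1 and 4 counts, and Nrg3 had 0 counts in every library.

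Signalling genes downstream of the receptor were present in all 3 tumors: 20 of 20 members of that list reached 1 CPM, none was variable, and their summed level was 4199, 3587 and 4546 CPM. The feedback phosphatase Dusp6, a target of MAP kinase signalling, was highest per length at 836 TPM, with 808, 420.4 and 1181 CPM. The transcription factor Etv5, another such target, had 472, 288 and 494 CPM, and the MAP kinase inhibitors Spred1 and Spry2 268, 167 and 278 CPM and 65.6, 31.6 and 85.4 CPM. All 4 were lowest in wt2, and Spry2 lies in a region of chromosome 14, described further on, where most genes were lower in wt2. Cyclin D1 (Ccnd1) had the opposite order at 454, 601 and 373 CPM, highest in wt2. Of the 20 members, 10 were lowest in wt2, against 40.5% of all genes, and 6 were highest there, against 38.1%. In wt3 11 were highest, against 36.4%.

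Arhgap31 itself (ENSMUSG00000022799, chromosome 16, 38598340 to 38713274) had 675, 441 and 547 CPM, a mean of 554 ± 118 CPM (SD, n = 3) and 163 ± 29.8 TPM. It ranked 185 of all genes by CPM. Its GTPases Cdc42 and Rac1 had 438, 367 and 446 CPM and 306, 409 and 307 CPM, and per length 461 TPM and 250.1 TPM. Arhgap31 and Cdc42 were lowest in wt2, where Rac1 was highest.

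The tumors carried the markers of luminal epithelium. Epcam, an epithelial adhesion protein, had 1699, 1928 and 1535 CPM, keratin 18 (Krt18) 1118, 991 and 829 CPM and keratin 8 (Krt8) 775, 649 and 596 CPM, with coefficients of variation, in that order, of 11.5%, 14.8% and 13.6%. Krt8 and Krt18 were highest in wt1 and lowest in wt3. They held nearly all keratin counts: the 49 keratins summed to 1934, 1742 and 1554 CPM, and 41.3, 102 and 129 CPM without this pair. The adhesion protein E-cadherin (Cdh1) had 352, 323 and 262 CPM, and the tight junction protein claudin 3 (Cldn3) 471, 620.1 and 431 CPM. Of the 16 luminal markers, 13 averaged at least 5 CPM and 1 of these was variable (3.24% of all genes). That gene was Krt7, at 10.3, 40.7 and 65.3 CPM, lowest in wt1. Some luminal genes were low, with Krt19 at 1.51, 2.59 and 2.06 CPM.

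Transcription factors of luminal and alveolar fate were present in the tumors: 15 of 16 reached 1 CPM and none of the 15 was variable. Their median log2 range was 0.41, against 0.48 for all genes and 0.37 for genes that averaged at least 50 CPM. Of the 14 factors that averaged at least 50 CPM none was stable, against 11.3% of all such genes. Cebpb, required for alveolar development, was highest per length at 1553 ± 490.0 TPM (SD, n = 3). Sox10, a factor of mammary progenitor and neural crest cells, followed at 1039 ± 134 TPM and had 909, 1067 and 912 CPM. Gata3, a regulator of luminal identity, had 292, 273 and 253 CPM, and Elf5, which directs alveolar fate, 349, 298 and 262 CPM. Both were highest in wt1 and lowest in wt3. Foxa1, the pioneer factor of hormone-sensing cells, stood apart with 35, 3 and 10 counts.

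Milk genes were split between a few abundant members and many low ones. Lalba and Csn3 made up 87.5% of the summed CPM of the 16 milk and alveolar genes. Without this pair the list summed to 1622, 1510.1 and 1162 CPM, a far smaller range than the 9885, 19549 and 4967 CPM with it. Xdh, a xanthine dehydrogenase of milk fat secretion, had 432, 302 and 345 CPM and Muc15, a membrane mucin, 445, 455 and 175 CPM. The other caseins lay far below kappa-casein per length: beta-casein (Csn2) had 8.81 TPM and alpha-s1-casein (Csn1s1) 13.0 TPM, against 6571 TPM for Csn3. Csn2 had 3.20, 38.7 and 12.6 CPM and Csn1s1 11.5, 50.5 and 10.7 CPM, both highest in wt2 as Csn3 was. The whey protein gene Wap had 0.856, 1.96 and 0.413 CPM. Of 11 members above 5 CPM, 3 were variable (3.24% of all genes), namely Csn3, Csn2 and Csn1s1. Lalba was not among these. Of 13 members with at least 1 CPM, 6 were highest in wt2 (38.1% of all genes), 5 in wt1 (25.5%) and 2 in wt3 (36.4%).

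The alveolar progenitor markers included Kit, a receptor tyrosine kinase, at 1049, 632 and 1373 CPM, and the tetraspanin Tspan8 at 549, 289 and 546 CPM, both lowest in wt2. The list did not move as one: of 8 members with at least 1 CPM, 4 were lowest in wt2 (40.5% of all genes) and 3 highest there (38.1%). It summed to 4431, 6160 and 6291 CPM with Lcn2, and to 2105, 1347 and 2295 CPM without it. Aldh1a3, a retinaldehyde dehydrogenase, was low, at 0.654, 1.30 and 1.02 CPM. Hormone-sensing markers were low except the prolactin receptor (Prlr), at 134, 144 and 119 CPM. The estrogen receptor Esr1 had 9.53, 2.78 and 4.95 CPM and the progesterone receptor Pgr 0.225, 14.4 and 0.695 CPM. Pgr was thus under 1 CPM in wt1 and wt3 and well above that level in wt2. It was 1 of the 35 genes high in wt2 by the rule given further on. Wnt4 and Tnfsf11, which act downstream of progesterone, had 2, 2 and 8 counts and 2, 0 and 0 counts.

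Basal keratins were low. Krt5 had 15, 7 and 17 counts and Krt14 17, 36 and 7 counts, each under 1 CPM in every library, and the basal regulator Trp63 had 1.56, 1.07 and 2.08 CPM. Smooth muscle genes that basal cells share with vessel walls were higher, with Acta2, smooth muscle actin, at 15.1, 17.2 and 20.8 CPM and Tagln at 8.54, 9.83 and 12.7 CPM. The 12 basal markers summed to 54.9, 49.5 and 56.4 CPM, a 1.14-fold range.

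Within the insulin-like growth factor system, Igfbp5 made up 90.4% of the summed CPM of the 13 genes. The other 12 summed to 883, 987 and 904 CPM, close between the libraries. Igfals, which encodes the subunit that stabilises IGF complexes in serum, had 252, 174 and 237 CPM, and the binding protein gene Igfbp3 121, 149 and 182 CPM. Igfbp3 was highest in wt3, as Igfbp5 was, over a smaller range of 1.498-fold. Igf1 had 8.14, 6.42 and 9.27 CPM, and Igf2 and Igfbp1 had 0 counts in every library. The receptors Igf1r and Igf2r had 6.72 TPM and 112 TPM.

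Marker lists of other cell types had lower median levels than the luminal list, with macrophage genes highest among them and nearest to it in wt2. In bulk libraries fewer cells of a type and less RNA per cell cannot be told apart, and this holds for every list here. The median luminal marker had 176, 133 and 171 TPM in wt1, wt2 and wt3, and the median macrophage marker 51.0, 78.1 and 40.3 TPM. All 12 macrophage genes averaged at least 5 CPM and none was variable. Of these, Cd14 is also in the list of alveolar progenitor markers. Lyz2, the lysozyme of myeloid cells, had 111, 159 and 204 CPM, while the complement gene C1qa had 139.5, 100.2 and 78.7 CPM and the receptor Csf1r 81.9, 64.2 and 39.0 CPM. Lyz2 was highest in wt3, where C1qa and Csf1r were lowest.

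Fibroblast, vessel and mural cell markers were lower per length. The median member of the fibroblast list had 7.45, 7.03 and 6.18 TPM, of the endothelial list 7.77, 6.39 and 6.63 TPM and of the pericyte list 7.36, 11.6 and 8.55 TPM. Col1a1, a fibrillar collagen of fibroblasts, had 106, 176 and 73.5 CPM and Col3a1 140.2, 159 and 100.4 CPM, both highest in wt2 and lowest in wt3. The fibroblast list summed to 441, 569 and 316 CPM and its median log2 range was 0.68, above the 0.48 of all genes. Of 11 fibroblast genes with at least 1 CPM, 8 were highest in wt2 (38.1% of all genes) and 9 lowest in wt3 (32.8%). Pericyte genes had the same highest library, 7 of 8 in wt2, led per length by Notch3 at 62.7 TPM and Rgs5 at 45.3 TPM. Endothelial genes did not: 0 of 12 were highest in wt2 and 9 were lowest there, as with Pecam1 at 30.8, 27.1 and 34.2 CPM. Of the 7, 9 and 5 members of the fibroblast, endothelial and pericyte lists above 5 CPM, none was variable.

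Adipocyte and lymphocyte genes were low, and highest in wt1. Adiponectin (Adipoq), a hormone made by fat cells, had 4.42, 0.637 and 0.586 CPM, and all 7 adipocyte genes with at least 1 CPM were highest in wt1 (25.5% of all genes). The list summed to 83.8, 32.7 and 39.1 CPM. T and NK cell genes summed to 33.8, 22.4 and 7.56 CPM, and 6 of 6 were highest in wt1 and lowest in wt3. The granzyme Gzmb had 13.4, 10.03 and 2.06 CPM and the T cell receptor subunit Cd3e 1.76, 1.14 and 0.282 CPM. Gzmb alone of this list averaged 5 CPM, and it was variable.

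Several cell types were represented by a single shared gene or hardly at all. Of the mast cell list Kit held 99.9% of the summed CPM, and the other 8 genes, which include the proteases of mast cells, summed to between 0.992 and 1.68 CPM. Without the transcription factor Xbp1 and the proteoglycan Sdc1, the other 7 B and plasma cell genes summed to between 0.738 and 2.07 CPM. The Schwann cell list was led by Sox10 (86.8% of its summed CPM). Neutrophil genes summed to 5.18, 5.03 and 3.26 CPM, and the defining gene Ly6g had 0, 0 and 1 counts. Skin keratinocyte genes summed to 10.2, 13.5 and 12.8 CPM, with 0 counts of filaggrin (Flg) in every library, and skeletal muscle genes to 17.4, 19.9 and 6.34 CPM. Erythroid genes summed to 121, 302 and 241 CPM, lowest in wt1 for 4 of 4 members with at least 1 CPM (26.7% of all genes). Globin genes are near-identical copies whose reads cannot be assigned with certainty.

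**Figure D3:**
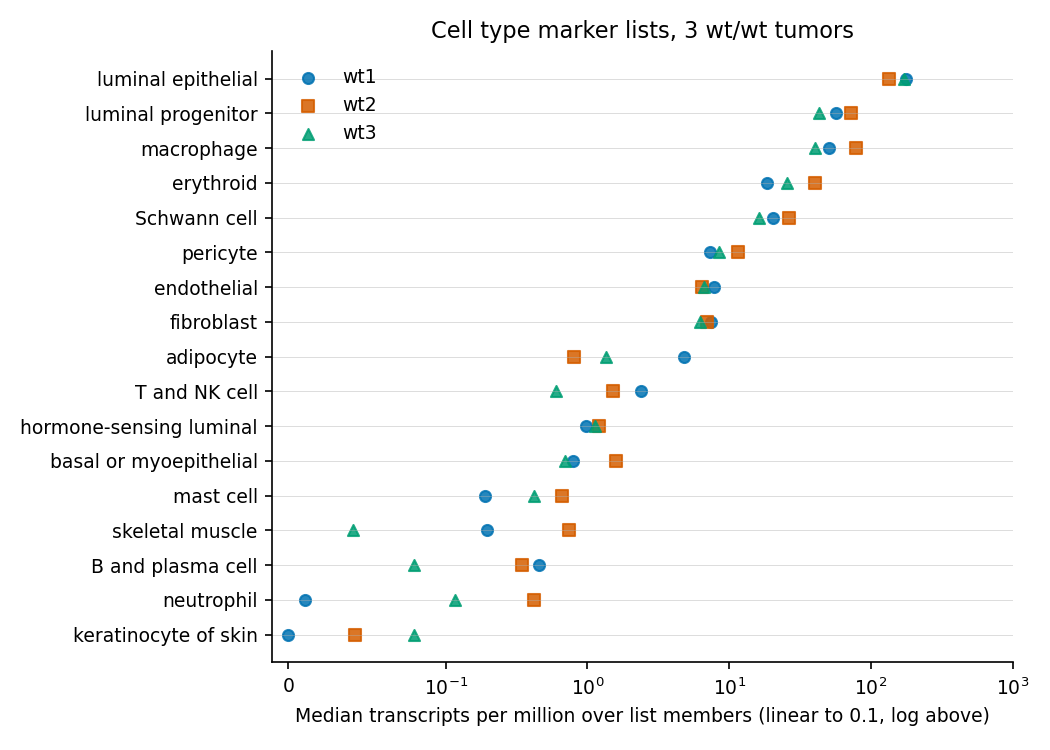
For each marker list, the median TPM over its members in wt1 (circle), wt2 (square) and wt3 (triangle); the axis is linear up to 0.1 and logarithmic above. Luminal epithelial genes are highest, with medians between 133 and 176 TPM, and macrophage genes lead the host cell types.

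Collagen transcripts were dominated by a type that is best known from cartilage. Col9a1, a chain of the fibril-associated collagen IX, had 2151, 2181 and 2209 CPM and a coefficient of variation of 1.33%, so it was both 1 of the 20 highest genes and a stable gene. It made up 46.3% of the summed CPM of the 44 collagens. Col9a2, another chain of collagen IX, had 351 TPM, Col9a3 62.4 TPM and the fibrillar collagen Col11a1 144 TPM, against 1414 TPM for Col9a1. The basement membrane collagen Col4a1 had 118 TPM and the fibroblast collagen Col1a1 59.8 TPM. Over the 32 collagens with at least 1 CPM, 24 were highest in wt2 (38.1% of all genes). The variable ones included Col16a1, at 29.4, 208 and 23.4 CPM, and Col7a1, the anchoring fibril collagen, at 43.8, 361 and 96.2 CPM, both highest in wt2.

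Genes of the interstitial matrix summed to 885, 1139.8 and 776 CPM and those of the basement membrane to 1184, 1477 and 1100.1 CPM. Of the 18 interstitial genes 13 were highest in wt2 (38.1% of all genes) and 12 lowest in wt3 (32.8%), and none was variable. This list shares members with the fibroblast and collagen lists, Col1a1 and Col3a1 among them, so the counts of these lists are not independent. Mesenchymal transition genes were low, with Snai1, Snai2 and Twist1, factors that repress E-cadherin or drive mesenchymal fate, at 1.37, 1.87 and 1.19 CPM, 0.631, 0.956 and 0.586 CPM and 0.428, 0.728 and 0.695 CPM. Vimentin (Vim), a filament protein of mesenchymal cells, had 58.5, 116 and 71.0 CPM, highest in wt2. Thrombospondin 1 (Thbs1), a secreted matrix-associated protein, had 381, 636 and 329 CPM, and the cartilage matrix protein Comp 15.7, 35.7 and 163 CPM, a variable gene at least 4-fold higher in wt3 than in wt1 or wt2.

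The genes nearest to equal across the 3 tumors covered general cell functions. The 10 with the smallest range included Kars, the lysyl-tRNA synthetase, at 220.3, 218 and 218 CPM, the splicing factor Sf1 at 199, 198 and 198 CPM, the ubiquitin ligase subunit Fbxo3 at 196, 198 and 197 CPM, and Gabpa, an ETS family transcription factor, at 75.4, 75.6 and 75.4 CPM. The 543 stable genes had a median coefficient of variation of 3.43%, against 1.47% from counting error alone. The chi-square test put 373 of them beyond counting error and 170 not.

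Of 20 genes often used as references, 18 averaged 50 CPM and 1 of these was stable, against 11.3% of all such genes. The prolyl isomerase gene Ppia had 506, 471 and 518 CPM, Hprt 53.6, 48.6 and 49.0 CPM and the TATA-binding protein gene Tbp 23.1, 24.8 and 23.2 CPM. Actin (Actb) ranged over 1.399-fold, at 1150.4, 1456 and 1609 CPM, and Gapdh over 1.44-fold, at 439.5, 631 and 478 CPM. B2m, the light chain of MHC class I, was variable at 4881, 451 and 698 CPM, far above the others in wt1.

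Interferon-stimulated genes set wt1 apart from the other tumors. Type I interferons act through a receptor that activates a complex of transcription factors, which binds the interferon-stimulated response element upstream of antiviral genes. RefSeq promoters on GRCm38.p6 were found for 11 of the 15 genes of the list. The element was searched as TTTC, any 2 bases and TTTC again, on both strands, in the 250 bases before each start. The sequences below are shown because their genes were high in wt1; each is the 200 bases before the start, read 5′ to 3′ on the strand of the gene, and capitals mark every match, written as the reverse complement where it lies on the other strand. Isg15, Ifit1, Ifit3, Rsad2 and Bst2 encode antiviral proteins and B2m the light chain of MHC class I, and Irf7, a transcription factor that amplifies interferon production, is shown as a member with no match.
Ifit1, chr19:34640689-34640888, plus strand: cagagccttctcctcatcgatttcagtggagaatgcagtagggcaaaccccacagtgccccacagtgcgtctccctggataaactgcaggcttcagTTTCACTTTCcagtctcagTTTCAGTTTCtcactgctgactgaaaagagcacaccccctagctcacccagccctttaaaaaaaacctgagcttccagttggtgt
Ifit3, chr19:34583329-34583528, plus strand: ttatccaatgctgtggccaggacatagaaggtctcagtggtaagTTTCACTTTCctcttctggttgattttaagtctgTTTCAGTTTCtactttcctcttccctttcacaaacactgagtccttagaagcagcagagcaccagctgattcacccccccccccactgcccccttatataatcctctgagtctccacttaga
Isg15, chr4:156200819-156201018, minus strand: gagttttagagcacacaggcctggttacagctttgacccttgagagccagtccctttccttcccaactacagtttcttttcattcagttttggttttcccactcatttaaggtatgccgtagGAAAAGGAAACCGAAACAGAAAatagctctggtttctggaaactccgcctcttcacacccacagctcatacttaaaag
Rsad2, chr12:26456453-26456652, minus strand: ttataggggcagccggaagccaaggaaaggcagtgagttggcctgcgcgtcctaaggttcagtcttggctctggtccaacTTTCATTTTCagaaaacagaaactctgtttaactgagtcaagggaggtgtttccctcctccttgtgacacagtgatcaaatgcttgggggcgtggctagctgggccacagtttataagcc
Bst2, chr8:71537473-71537672, minus strand: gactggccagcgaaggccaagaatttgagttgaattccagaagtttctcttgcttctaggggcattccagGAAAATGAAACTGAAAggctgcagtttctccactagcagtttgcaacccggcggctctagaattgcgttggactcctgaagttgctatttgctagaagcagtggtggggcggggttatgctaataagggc
B2m, chr2:122147487-122147686, plus strand: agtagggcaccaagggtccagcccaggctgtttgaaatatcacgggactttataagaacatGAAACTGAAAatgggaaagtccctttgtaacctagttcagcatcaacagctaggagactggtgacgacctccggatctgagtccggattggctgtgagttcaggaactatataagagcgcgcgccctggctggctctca
Irf7, chr7:141266425-141266624, minus strand: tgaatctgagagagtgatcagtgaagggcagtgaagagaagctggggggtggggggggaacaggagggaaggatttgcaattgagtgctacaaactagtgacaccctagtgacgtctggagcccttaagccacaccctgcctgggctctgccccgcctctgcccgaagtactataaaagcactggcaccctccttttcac
Isg15 has 3 matches, Ifit1, Ifit3 and Bst2 have 2 each, and Rsad2 and B2m 1 each, some of them overlapping. They lie between 56 and 156 bases before the start. Over the list, 7 of 12 starts held a match (58.3%), against 978 of 32851 starts of all genes (2.98%). Of the MHC class I list, 1 of 8 starts held a match (12.5%), that of B2m. Of the genes high in wt1, which include 13 members of the list, 28 of 77 starts held 1 (36.4%). A match is a description of these letters and not a measured binding site.

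All 15 interferon-stimulated genes were highest in wt1 (25.5% of all genes) and lowest in wt2 (40.5%). Irf7 had 650.3, 22.0 and 56.8 CPM, Ifit1 354, 10.9 and 28.2 CPM, Isg15 184, 7.30 and 20.2 CPM and Bst2, an antiviral membrane tether, 307, 28.01 and 51.3 CPM. In each case wt3 lay between the others and nearer to wt2. The 15 genes summed to 3293, 171 and 376 CPM, a 19.3-fold range. Of 14 members above 5 CPM all 14 were variable (3.24% of all genes), and 13 were at least 4-fold higher in wt1 than in either other tumor (0.787% of all genes). Cxcl10, a chemokine that attracts T cells, was below 5 CPM on average, at 4.15, 0.523 and 0.652 CPM.

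**Figure D4:**
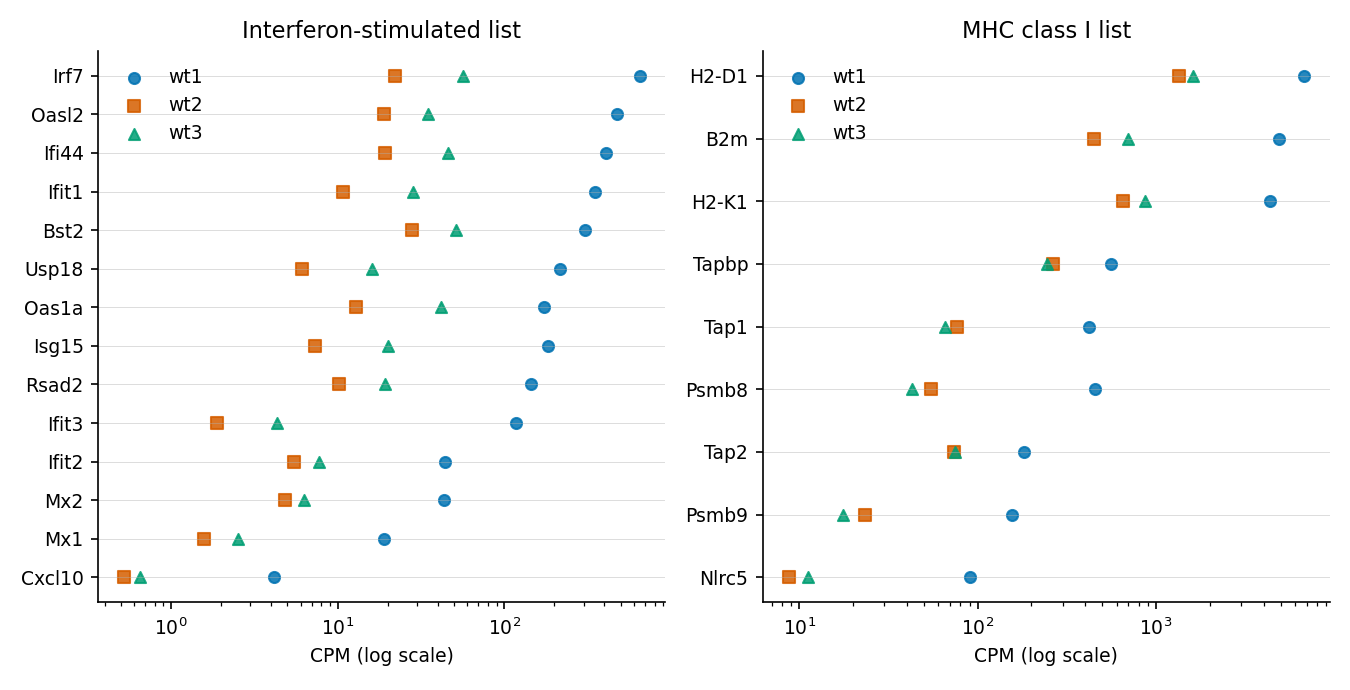
CPM (log scale) of 14 of the interferon-stimulated genes (left) and of the MHC class I genes (right) in wt1 (circle), wt2 (square) and wt3 (triangle). Every gene of both panels is highest in wt1, and every gene of the left panel is lowest in wt2.

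Genes of antigen presentation by MHC class I followed the same highest library. The 9 genes summed to 17811, 2959 and 3626 CPM, and all 9 were highest in wt1 (25.5% of all genes). Of these, 7 were at least 4-fold higher there than in either other tumor (0.787% of all genes). H2-D1 had 6741, 1351 and 1605 CPM and H2-K1 4321, 654 and 868 CPM, near-identical heavy chain genes whose reads are assigned with less certainty. The immunoproteasome subunit Psmb8 had 456, 54.5 and 42.7 CPM and the peptide transporter Tap1 422, 76.9 and 65.3 CPM. Here wt2 and wt3 were close, with 5 genes lowest in wt2 and 4 in wt3. The class I activator Nlrc5 had 90.2, 8.71 and 11.1 CPM.

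MHC class II genes, which mark antigen-presenting cells, had another order. They summed to 375, 347 and 124 CPM, and all 7 were lowest in wt3 (32.8% of all genes), as with H2-Aa at 78.4, 68.3 and 23.6 CPM and the invariant chain Cd74 at 189, 173 and 58.1 CPM. Beside these differences, the T and NK cell and the adipocyte lists were also highest in wt1, as given above, the first with 12 of 12 members above 3 counts in at least 1 library and sums between 7.56 and 33.8 CPM. The macrophage sum was highest there too, at 636, 622 and 524 CPM, with 7 of 12 genes highest in wt1 (25.5% of all genes) and 7 lowest in wt3 (32.8%). The part of these cells in the interferon and MHC values was not tested.

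Mitotic genes were highest in wt2 and lowest in wt3. Mki67, the proliferation marker Ki-67, had 389, 461 and 186 CPM and the topoisomerase Top2a 210.2, 300.0 and 118 CPM. All 14 genes of the G2 and M phase list were lowest in wt3 (32.8% of all genes) and 13 were highest in wt2 (38.1%), with sums of 1396, 1814 and 759.7 CPM. The sums ranged over 2.39-fold, and none of the 14 was variable. The other, the centromere protein gene Cenpf, was highest in wt1, at 124, 71.6 and 38.9 CPM. S phase genes ranged over only 1.20-fold, with sums of 1112, 1130.3 and 946 CPM, and 11 of 14 were lowest in wt3 (32.8% of all genes). Pcna, the replication clamp, had 145, 167 and 125 CPM.

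Fatty acid synthesis genes summed to 5148, 9005 and 2243 CPM, with 4 of 15 variable (3.24% of all genes). Without Scd1, Scd2 and Srebf1 the other 12 summed to 1558, 1354 and 1125 CPM. Of the 15, 8 were highest in wt1 (25.5% of all genes), 6 in wt2 and 1 in wt3, and 10 were lowest in wt3 (32.8%). Scd1 and Scd2, which desaturate fatty acids, had 838, 2317 and 103 CPM and 885, 1715 and 133 CPM, and the desaturase Fads2 had 52.7, 63.4 and 5.13 CPM. These 3 were at least 4-fold lower in wt3 than in either other tumor (0.215% of all genes). The other variable gene was their regulator Srebf1, at 1867, 3618 and 882 CPM, highest in wt2. Fatty acid synthase (Fasn) had 416, 344 and 178 CPM and Acly, which supplies its substrate, 242, 181 and 214 CPM. Cholesterol synthesis genes ranged over only 1.18-fold, at 1084, 1042 and 915 CPM, with none of 19 variable.

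Of 15 heat shock and endoplasmic reticulum stress genes, 10 were highest in wt2 (38.1% of all genes) and 10 lowest in wt3 (32.8%), while 4 were highest in wt1 and 4 lowest in wt2. Hspa5, the chaperone BiP, had 1030.1, 1718 and 673 CPM, its partner Hsp90b1 1253, 1835 and 722 CPM and calreticulin (Calr) 988, 1311 and 513 CPM, highest in wt2 and lowest in wt3. The cytosolic chaperone Hsp90ab1 was near equal, at 1927, 1853 and 1880.0 CPM. Atf4, a factor of the stress response, was highest in wt3, at 115, 107 and 276 CPM. Of 18 glycolysis and hypoxia genes, 13 were highest in wt2 (38.1% of all genes) and 9 lowest in wt1 (26.7%). Aldoa, at 3575, 1668 and 2753 CPM, was instead 1 of the 4 that were lowest in wt2. Pkm, the pyruvate kinase, was stable at 1492, 1529 and 1498 CPM. The hypoxia-responsive genes Vegfa, an angiogenic factor, and Car9, a carbonic anhydrase, were highest in wt2, at 70.2, 173 and 105 CPM and 17.9, 39.7 and 13.2 CPM.

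Ribosomal protein genes were close between tumors, and most were lowest in wt1. Their 80 members with at least 1 CPM had a median log2 range of 0.29, and 69 were lowest in wt1 (26.7% of all genes). The list summed to 36413, 43893 and 41349.9 CPM, and 0 of 80 genes above 5 CPM were variable. Many of these genes have near-identical pseudogenes, so their counts are less certain. Mitochondrially encoded genes summed to 18053, 16646 and 21924 CPM and all 7 with at least 1 CPM were highest in wt3 (36.4% of all genes). These are 7 of 13 genes: 2 of the 13 had at most 3 counts in every library, and 1 of these had 0. Reads that align to several places were not counted, and their part in these low counts was not tested.

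Genes that set a single tumor apart were counted by a rule of size: at least 4-fold above the higher of the other libraries, or at least 4-fold below the lower of them, with a mean of at least 5 CPM. In wt1, 88 genes were high (0.787%) and 23 low (0.206%). In wt2, 35 were high (0.313%) and 43 low (0.385%). In wt3, 21 were high (0.188%) and 24 low (0.215%).

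The 5 protein-coding genes highest against the other tumors in wt1 are all known as interferon-stimulated genes, and the ranking used no list. Oas2 and Oas3, sensors of double-stranded RNA, had 192, 1.66 and 2.43 CPM and 25.4, 0.614 and 0.847 CPM, the restriction factor Trim30a had 95.7, 4.16 and 5.17 CPM, and Ifi27l2a 158, 3.12 and 8.75 CPM. Another was Ifit3, at 118, 1.89 and 4.32 CPM. It has a near-identical neighbour, Ifit3b, at 97.5, 1.18 and 3.28 CPM. The lowest in wt1 were unrelated in function, among them Fign, a microtubule-severing enzyme, with 4, 525 and 214 counts, and Rspo3, a Wnt signal amplifier, at 0.473, 9.19 and 11.5 CPM.

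In wt2 the high genes included Sik1, a kinase induced by cyclic AMP, at 111, 1049 and 36.2 CPM, the phosphatase subunit Ppp2r2c at 0.406, 47.7 and 2.35 CPM, the glutamate receptor Grik3 at 5.30, 115 and 15.1 CPM and the receptor Pgr described above. Sik1 was among the more abundant of the variable genes. Low in wt2 were Apoc1, an apolipoprotein, at 336, 5.30 and 172 CPM, the secreted protein gene Prol1 at 56.3, 1.00 and 125 CPM, the membrane protein gene Ly6d at 7.44, 0.273 and 8.97 CPM and Pm20d1, an amino acid hydrolase, with 437, 1 and 389 counts. In these 4 genes wt1 and wt3 were far closer to each other than to wt2.

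In wt3 the high genes included the developmental transcription factor Dmrta2, at 2.30, 1.41 and 29.4 CPM, and genes known from neurons. Dlgap1, a synaptic scaffold, had 0.947, 5.55 and 114 CPM and the glutamate receptor Gria4 0.744, 0.66 and 21.5 CPM. The noradrenaline transporter Slc6a2 had 45.1, 2.23 and 256 CPM, and wt3 was above both others. Low in wt3 were Snhg11, at 35.0, 65.6 and 0.847 CPM, and several genes of chromosome X described with the last comparison.

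Variation between the tumors was also ordered along chromosomes. For each protein-coding gene with a mean log2 CPM over 3, each library was set against the mean of the 3, and medians were taken per chromosome. Medians of wt1, wt2 and wt3 were 0.12, -0.31 and 0.14 on chromosome 1 and -0.14, 0.25 and -0.10 on chromosome 14. Among the other chromosomes only chromosome 12 reached 0.1 in size, at -0.11 in wt2. In 10 Mb bins with at least 10 genes, 22 of 244 had a library at least 0.25 from 0, and 10 of these lay on chromosome 1 and 9 on chromosome 14.

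The regions were outlined after these bins were seen, so their values are a description. Beyond 110 Mb on chromosome 1, the median of 268 genes in wt2 was 0.86 lower (log2) than the mean of the others, a 1.81-fold difference, and 231 genes (86.2%) were lower in wt2 than in both others. Between 80 and 100 Mb on the same chromosome, wt3 was 0.79 higher over 62 genes, of which 54 were higher than in both others. On chromosome 14 between 10 and 80 Mb, wt2 was 0.42 higher over 295 genes, and beyond 100 Mb it was 1.13 lower over 30 genes. On chromosome 5 beyond 130 Mb, wt2 was 0.45 higher over 168 genes. These are RNA levels, and no DNA was analysed here.

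Some exceptions within the gene lists lie in these regions, chosen after their values were seen. Cenpf, the mitotic gene that was not highest in wt2, and Mcm6, a helicase subunit of S phase at 146, 61.1 and 99.1 CPM, lie on chromosome 1 beyond 110 Mb, and so does the laminin gene Lamc1, at 112, 85.5 and 94.6 CPM, in the basement membrane list, of which 9 of 15 genes were highest in wt2. The pericyte gene Rgs5 and the laminin gene Lamb3 lie there too and were not lowest in wt2, with 53.8, 73.2 and 60.4 CPM and 11.6, 14.8 and 22.1 CPM. Claudin 10 (Cldn10), at 109.98, 5.10 and 155 CPM, and the signalling inhibitor Spry2 lie on chromosome 14 beyond 100 Mb, and were lowest in wt2. Igfbp5 lies at 72857932 to 72874884 on chromosome 1, in a bin where wt2 had a median of 0.33, yet was itself lowest in wt2.

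On chromosome X, wt3 had runs of neighbouring genes far below their level in the other tumors. Of the 24 genes low in wt3, 13 lie on chromosome X. At the lower level of 1 CPM, that chromosome held 411 of 12509 protein-coding genes. Among 411 protein-coding genes of that chromosome with a mean of at least 1 CPM, 2 runs of at least 3 consecutive genes were 2-fold or more below both other libraries, a rule set after the genes were seen. The first run has 5 genes, from Fam122b to Rtl8b (X, 53243415 to 53670408, GRCm38), which were between 5.29 and 27.3-fold below the mean of the others. Mospd1, which encodes a membrane protein of the endoplasmic reticulum, had 37.0, 31.9 and 1.22 CPM there, and Rtl8a, Rtl8b and Rtl8c are near-identical copies. Its detected neighbours Hprt and Zfp449 were at the level of the other tumors, with 53.6, 48.6 and 49.0 CPM and 4.55, 5.60 and 5.45 CPM.

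The second run has 9 genes, from Sat1 to Sh3kbp1 (X, 155213132 to 159978069), and spans 4.76 Mb. Eif1ax, a translation initiation factor, had 143, 146 and 4.15 CPM, Prdx4, a peroxiredoxin of the endoplasmic reticulum, 101, 97.7 and 3.34 CPM, Mbtps2, a protease that activates membrane-bound transcription factors, 44.5, 38.1 and 1.43 CPM, and Bclaf3 16.2, 18.3 and 0.304 CPM. Sat1, which breaks down polyamines, had 159, 281 and 19.3 CPM, and Sms, which makes spermine, 18.3, 15.6 and 0.63 CPM. All 9 were between 7.31 and 49.5-fold below the mean of the others. The detected neighbours on either side, Spin2c and the pyruvate dehydrogenase gene Pdha1, had 2.93, 2.46 and 2.93 CPM and 304, 233 and 296 CPM.

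In both runs counts remained in wt3, from 14 counts of Bclaf3 to 887 of Sat1. Outside the runs the median gene of the chromosome was 1.04-fold lower in wt3, and 1 other gene, Gm21887, was at least 4-fold below both others, at 3.09, 3.03 and 0.543 CPM. Kctd12b, just before the second run, was also lowest in wt3, at 50.2, 38.0 and 10.3 CPM, though its neighbours were not.

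**Figure D5:**
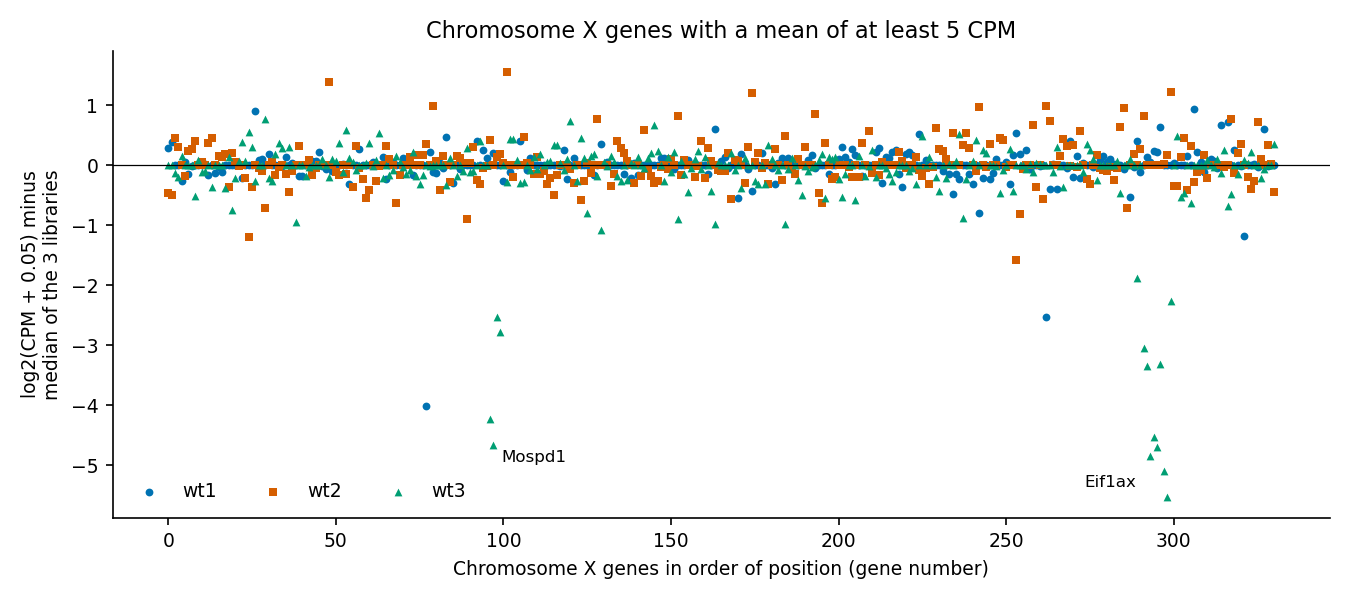
Genes of chromosome X with a mean of at least 5 CPM in order of position; the vertical axis is log2(CPM + 0.05) minus the median of the 3 libraries, for wt1 (circle), wt2 (square) and wt3 (triangle). Most points lie near 0, and the points of wt3 drop in 2 groups of neighbours, at Mospd1 and at Eif1ax.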

How the data were processed

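RNA of 3 CdGAP wt/wt tumors was extracted with TRIZOL and RNeasy columns and sequenced by Illumina methods, per the labels' protocols. The authors deposited raw counts of read pairs per gene, made with featureCounts 1.6.0 on Ensembl release 93 of GRCm38, per the file headers, with both ends aligned, chimeric pairs left out and strand option 2. STAR 2.5.1b, featureCounts 1.4.6, DESeq2 1.12.3 and FastQC 0.11.5 are listed, without their order, per the submitters' processing notes. The counting options, per the file headers, do not include reads that align to several places, so near-identical genes are less certain.

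From these counts, edgeR 4.0.16 in R 4.3.3 gave TMM-scaled CPM (log2 with a prior count of 2), filterByExpr and the common dispersion. TPM used the gene lengths in the files. GENCODE M21 gave symbols for 54165 of 54232 identifiers, and 0 rows named no gene. Folds of single genes use log2 CPM with that prior count, which understates those of low genes. Errors are SDs over 3 libraries. Total counts ran from 42373196 to 46460750. There was 1 group, so no test between groups was made, and the 3 fx/fx libraries were not used. Rules of size were also run on simulated counts. The spread set there was below the common biological coefficient of variation of these libraries. That run therefore cannot tell how many genes pass the rules through such spread alone.

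Named genes were the markers of the tumors and Arhgap31, the 20 protein-coding genes highest by CPM and 10 per length, the 6 highest of each list with defining markers near the limit of detection, the 12 variable genes of widest range, 5 high and 5 low genes per library, the 10 stable genes of smallest range and the reference genes, without predicted genes and near-identical copies. Further list members and genes are named where the text singles them out, chosen after their values were seen. A few genes that the rule names are not reported here. Members and lists were chosen with earlier results of these data known. Alternatives were other scalings, filters, prior counts and each library left out.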

Additional observations from a re-analysis of the deposited data

How the results depend on the processing

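Under other scalings (DESeq2 1.42.0 size factors, total counts) and a prior count of 0.5, the numbers of detected, variable and stable genes, of genes high in 1 library and of shifted chromosomes stayed within 1.5 times their values. The count of variable genes, 362, depended on the level required: 703 with a minimum mean of 1 CPM and 1907 with no filter on low values. The 543 stable genes became 1086 with a minimum mean of 5 CPM. With 1 library left out the range is over 2 values only, and there were 188 to 234 variable and 1246 to 2022 stable genes; without wt1 188 genes were variable, without wt2 190 and without wt3 234. The 100 genes highest by mean CPM held 19.1% of counts on average, 28.3% of TPM per length and 18.1% of counts without mitochondrially encoded genes. The biological coefficient of variation was 0.327 as the edgeR common value, 0.368 without the filter on low counts, 0.235 as the DESeq2 median, and between 0.277 (without wt2) and 0.342 with a library left out. Other scalings moved the mean summed CPM of the 45 lists by at most 1.02-fold. With 1 library left out it moved past 1.5-fold in 5 lists: interferon-stimulated genes from 1279.9 CPM to 277 CPM without wt1, MHC class I from 8132 to 3339 CPM without wt1, and milk genes from 11467 to 7305 CPM, fatty acid synthesis from 5465 to 3636 CPM and long non-coding RNAs from 710.4 to 456 CPM without wt2. Mean CPM of 83 of 544 named genes moved past that fold in the same way. No paired analysis was possible because only the 3 CdGAP wt/wt libraries were described and no test between groups was made. Depth limits genes near 3 counts (0.0652 to 0.0683 CPM), where folds are not read.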

Other observations

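Immediate early genes, which respond within minutes to growth signals or handling, were detected in all 3 tumors. Ier3 and Jund were highest per length, at 1079.8 TPM and 671 TPM, and had 414, 417 and 282 CPM and 339, 292 and 394 CPM in wt1, wt2 and wt3. Fos was the variable member (1 of 12 above 5 CPM, against 3.24% of all genes), at 13.95, 32.4 and 7.34 CPM. Of the 14 genes, 9 were highest in wt2, against 38.1% of all genes with a mean of at least 1 CPM.

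Of 7 long non-coding RNAs with at least 1 CPM, 5 were highest in wt2 (38.1% of all genes), 1 in wt1 and 1 in wt3. Neat1, the scaffold of paraspeckles, had 187, 832 and 203 CPM, Malat1, a transcript of nuclear speckles, 159, 219.5 and 98.2 CPM, and the imprinted antisense transcript Kcnq1ot1 12.2, 42.2 and 8.86 CPM. H19, an imprinted transcript of fetal tissue, was near equal at 1.13, 1.02 and 1.02 CPM. Gas5, a host of small nucleolar RNAs on chromosome 1, was instead lowest in wt2, at 99.6, 66.7 and 103 CPM.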
